A study of Mus musculus with 6 samples.

Results

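The receptors of the colony-stimulating factors were examined in PB neutrophils of mice with ligature-induced periodontitis (LIP). They comprise 6 receptor chains, *Csf3r*, *Csf2ra*, *Csf2rb*, *Csf2rb2*, *Csf1r* and *Il3ra*, and the ligand *Csf1*, chosen by gene name as 7 of the 29097 genes listed. C57BL/6 male mice aged 8 weeks carried silk ligatures on the second molars of both jaws for 14 d, and the Ctrl mice were left unligated over the same time. CD45+CD11b+Ly6G+ neutrophils were sorted from PB, and the cells of 5 mice were pooled for each of 3 libraries per group. All mice were males of 1 strain, and single mice cannot be distinguished within a pool. Smart-seq2, which copies full-length mRNA and amplifies it by PCR without molecular identifiers, was used for the libraries.

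Of the 7 genes, 6 were detected well enough to be tested. With TMM scaling, all 6 rose in LIP relative to Ctrl, by 1.17 to 2.19 on the log2 scale. When libraries were scaled on neutrophil marker genes, 4 of these differences turned negative. Of these, *Csf1r* and *Csf1* were called lower, beside 89.2% of all genes tested, while *Csf3r* stood at -0.01 and was not called. With TMM scaling, 26.5% of the 10440 genes tested were called higher in LIP and 27.2% lower. All 3 LIP libraries lay above all 3 Ctrl libraries in each of the 6 genes and in 30.3% of all genes tested. *Csf3r*, the G-CSF receptor, was the most abundant of the 7 in both groups. The chains of the GM-CSF receptor, *Csf2ra* and *Csf2rb*, rose by 1.63 and 2.16. The seventh gene, *Il3ra*, stayed under 1 FPKM in all 6 libraries, with overlapping groups.

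Levels are given as FPKM, the reads of a gene divided by its length and the library total, and differences come from edgeR's quasi-likelihood test on read counts after TMM scaling, a method that presumes little change in the bulk of genes. CPM are counts scaled to the TMM-adjusted library total. A gene was tested at a mean FPKM of at least 1 and called at an adjusted p under 0.05.

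The libraries held 52186555 to 57262379 counted reads and differed in composition between the groups. The sorting marker *Ly6g* lay between 18.2 and 19.5 FPKM in Ctrl and between 37.8 and 48.3 in LIP, and all 20 neutrophil markers were called higher in LIP, by 1.89 in the median on the log2 scale. Markers of other cells were also present, but the eosinophil genes *Epx* and *Ear6* were not among the 29097 genes listed. Every listed gene had some reads, so the presence of a marker is no finding on its own. All 12 B cell, 11 T cell and 8 erythroid markers tested were called lower in LIP, with medians of -2.58, -2.46 and -2.96. In bulk samples such as these, fewer cells of a type and less RNA per cell cannot be told apart. The part of this shift in the values below was not tested. Scaling on neutrophil markers, also given below, sets genes against those markers and cannot tell cell content from RNA per cell. The median of all genes tested was -0.09 with TMM scaling, -0.42 with library totals and -1.94 with scaling on the neutrophil markers.

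Colony-stimulating factors are cytokines that drive the production, survival and activation of myeloid cells. G-CSF acts through a homodimer of the *Csf3r* product and is the main factor for neutrophil output from the BM. GM-CSF, IL-3 and IL-5 each bind an alpha chain of their own and signal through a shared beta chain, whereas M-CSF binds the receptor tyrosine kinase encoded by *Csf1r*. The cytokine receptor chains carry no kinase and signal through JAK kinases and STAT proteins bound to their cytoplasmic tails.

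*Csf3r* (ENSMUSG00000028859, GRCm38, chromosome 4 from 126024550 to 126044440) stood at 402, 257 and 387 FPKM in the 3 Ctrl libraries and at 1023, 1009.7 and 985 FPKM in the 3 LIP libraries. The groups did not overlap, and the LIP libraries were closer to each other than the Ctrl libraries, among which replicate 2 was low. In CPM the level rose from 1219 ± 264 to 4357 ± 103 (n = 3, SD), a 3.58-fold ratio of the means. The log2 fold change came to 1.84, with a standard error of 0.139 (adjusted p = 2.24e-06 by edgeR), above that of 97.1% of the genes tested. By mean FPKM, *Csf3r* ranked 125th of all listed genes in Ctrl and 50th in LIP.

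*Csf2ra* (ENSMUSG00000059326, chromosome 19 from 61223957 to 61228429), which encodes the alpha chain that binds GM-CSF, was the second most abundant chain. Its level was 56.6, 60.6 and 59.3 FPKM in Ctrl and 163, 143 and 136 FPKM in LIP. The Ctrl libraries were nearly equal, and every LIP library was above them. The rise from 164 ± 8.36 to 508 ± 51.3 CPM (n = 3, SD) gave a log2 fold change of 1.63 with a standard error of 0.107 (adjusted p = 9.70e-07 by edgeR).

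*Csf2rb* (ENSMUSG00000071713, chromosome 15 from 78325752 to 78351001) encodes the beta chain common to the GM-CSF, IL-3 and IL-5 receptors. Mice carry a near copy beside it on the opposite strand, *Csf2rb2* (ENSMUSG00000071714, chromosome 15 from 78282507 to 78305721), whose product serves IL-3 only. The coding sequences, 2688 and 2634 bases long in the GENCODE vM21 transcripts, were identical at 95.24% of 2628 aligned bases, so the counting could have divided or dropped reads between both genes, and their single values are uncertain. Of all 150-base windows of the *Csf2rb* transcript, 3.58% also occurred in that of *Csf2rb2*. The longest run without a difference is printed first, because a read pair wholly inside its 242 bases cannot be assigned to either gene alone. It covers coding positions 2083 to 2324 in exon 14 of 14, at chr15:78348577-78348818 on the forward strand for *Csf2rb* and at chr15:78284630-78284871 on the reverse strand for *Csf2rb2*, read 5′ to 3′.
Csf2rb and Csf2rb2: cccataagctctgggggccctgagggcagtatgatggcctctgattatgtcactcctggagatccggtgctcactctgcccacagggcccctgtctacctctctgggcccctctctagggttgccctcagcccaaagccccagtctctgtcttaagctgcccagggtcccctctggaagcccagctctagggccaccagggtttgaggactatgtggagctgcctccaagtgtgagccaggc

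The 60-base stretch with most differences is printed for both genes to show what separates them, with the 13 differing bases in capitals. It lies in exon 4 of 14, at chr15:78338893-78338952 on the forward strand for *Csf2rb* and at chr15:78294379-78294438 on the reverse strand for *Csf2rb2*.
Csf2rb: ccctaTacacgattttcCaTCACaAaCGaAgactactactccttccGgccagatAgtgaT
Csf2rb2: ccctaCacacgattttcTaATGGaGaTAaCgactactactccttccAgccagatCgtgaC

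In Ctrl, *Csf2rb* stood at 20.3, 16.0 and 21.1 FPKM, and in LIP at 70.5, 65.1 and 70.9 FPKM. Each LIP library was more than 3-fold above each Ctrl library on this scale. In CPM the gene rose from 135 ± 18.0 to 601 ± 30.1 (n = 3, SD), a log2 fold change of 2.16 with a standard error of 0.119 (adjusted p = 3.39e-07 by edgeR).

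*Csf2rb2* was far less abundant, at 1.96, 0.825 and 2.13 FPKM in Ctrl and 7.28, 5.55 and 5.20 FPKM in LIP. The groups did not overlap, and Ctrl replicate 2 was again the lowest. In CPM the level went from 7.51 ± 3.21 to 34.2 ± 6.51 (n = 3, SD). Its log2 fold change of 2.19 was the largest of the 6 genes and carried the largest standard error, 0.335 (adjusted p = 0.000323 from edgeR). *Csf2rb* and *Csf2rb2* lay above 98.9% and 99.1% of the genes tested in log2 fold change. With the reads of both genes summed before the fit, the log2 fold change came to 2.16, with a standard error of 0.124 (adjusted p = 4.42e-07 by edgeR).

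The share of *Csf2rb* in the summed FPKM of both beta chains does not depend on the scaling between libraries. It was 91.2%, 95.1% and 90.8% in Ctrl and 90.6%, 92.1% and 93.2% in LIP. The groups overlapped, with means of 92.4% ± 2.37 and 92.0% ± 1.27 (n = 3, SD). The exact permutation test gave a two-sided p of 0.8 (0.1 is the smallest p for 3 libraries against 3). The difference of -0.39 percentage points became 0.975 without Ctrl replicate 2 and 0.283 without LIP replicate 1, so its sign rested on single libraries.

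*Il3ra* (ENSMUSG00000068758, chromosome 14 from 14346275 to 14355493) encodes the IL-3 alpha chain, which pairs with either beta chain. It had 64, 157 and 22 reads in Ctrl and 23, 60 and 127 reads in LIP, or 0.124 to 0.883 FPKM over the 6 libraries. The libraries of both groups were interleaved. Without the filter on low genes, the log2 fold change was 0.12 with a standard error of 0.945 (adjusted p = 0.946 from edgeR), which leaves differences of several fold in either direction undetectable at this level. Basophils are known for IL-3 receptors, and of 5 basophil markers tested only *Gata2*, a transcription factor, was called higher, with 0.94 (adjusted p = 0.00873), a call that was lost with library totals (0.61, adjusted p = 0.0587). The basophil protease *Mcpt8* had a log2 fold change of 0.42 (adjusted p = 0.546), and the summed level of the basophil list overlapped between groups, at 9.14 to 12.6 FPKM in Ctrl and 8.68 to 13.05 in LIP.

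*Csf1r* (ENSMUSG00000024621, chromosome 18 from 61100598 to 61131134) encodes the M-CSF receptor, which is best known from monocytes and macrophages. It was read at 40.8, 23.5 and 38.4 FPKM in Ctrl and at 68.9, 78.3 and 69.5 FPKM in LIP. No LIP library fell into the Ctrl range, and Ctrl replicate 2 was well under its group. The rise from 191 ± 50.2 to 500.3 ± 35.1 CPM (n = 3, SD) gave a log2 fold change of 1.39 with a standard error of 0.176 (adjusted p = 8.55e-05 by edgeR).

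Monocyte transcripts moved in the same direction. Of 12 monocyte and macrophage markers, 10 were called higher, the median being 1.07 on the log2 scale, and their summed level was 838 to 887 FPKM in Ctrl and 1023 to 1091 FPKM in LIP. *Ccr2*, the chemokine receptor of classical monocytes, rose most of the list, by 1.72 (adjusted p = 3.64e-06 from edgeR). The most abundant markers of the list were the protease gene *Ctss*, with a log2 fold change of 0.16 (adjusted p = 0.235), and the nuclear receptor gene *Nr4a1*, with 0.57 (adjusted p = 0.00106), which was not called with library totals (0.25, adjusted p = 0.0704). The part of monocyte RNA in the *Csf1r* level was not tested.

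*Csf1* (ENSMUSG00000014599, chromosome 3 from 107741048 to 107760469) encodes M-CSF, the ligand of that receptor. Its level was 15.0, 11.4 and 14.0 FPKM in Ctrl and 25.3, 22.9 and 25.1 FPKM in LIP, without overlap. It changed least of the 6 genes, from 68.9 ± 8.70 to 155 ± 8.87 CPM (n = 3, SD), a log2 fold change of 1.17 with a standard error of 0.128 (adjusted p = 3.15e-05 by edgeR). Of the genes tested, 87.6% had a lower log2 fold change.

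**Figure D1:**
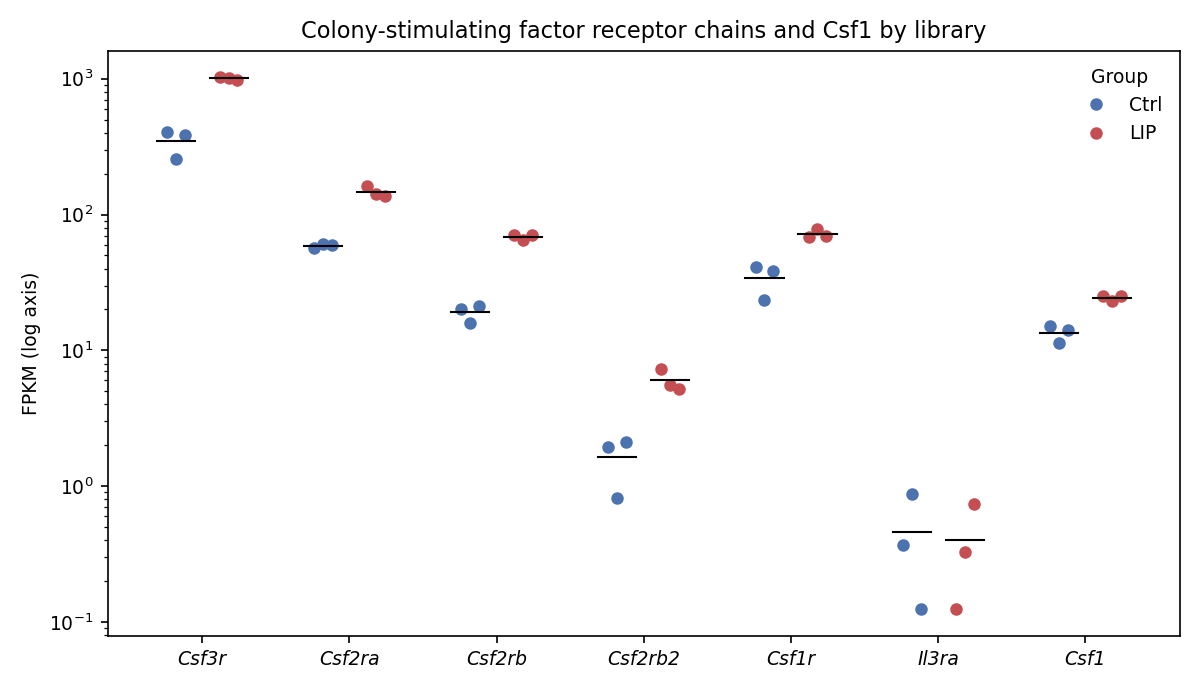
FPKM on a log axis of the 6 receptor chains and *Csf1* in each library, 3 Ctrl (blue) and 3 LIP (red), with the group mean as a black line. The LIP points lie above the Ctrl points for every gene except *Il3ra*, where Ctrl spans 0.124 to 0.883 FPKM and LIP 0.125 to 0.743 FPKM.

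The order of the mean levels was *Csf3r*, *Csf2ra*, *Csf1r*, *Csf2rb*, *Csf1*, *Csf2rb2* and *Il3ra* in both groups. *Csf3r* was 5.93 times as high as *Csf2ra* in Ctrl and 6.82 times in LIP, on the FPKM scale. Neighbours in this order were separated in all libraries of a group with 2 exceptions, *Csf2rb2* and *Il3ra* in Ctrl and *Csf1r* and *Csf2rb* in LIP. The latter pair stood 1.79-fold apart in Ctrl and 1.05-fold apart in LIP.

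The summed level of the 6 receptor chains was 522, 359 and 508 FPKM in Ctrl and 1334, 1302 and 1267 FPKM in LIP. *Csf3r* made up 74.9% ± 2.89 of this sum in Ctrl and 77.3% ± 0.518 in LIP (n = 3, SD; p = 0.2 in the exact permutation test, two-sided), a difference of 2.39 percentage points that shrank to 0.735 without Ctrl replicate 2. As a share of read counts, *Csf3r* took 70.7% ± 2.18 and 72.6% ± 0.253 (n = 3, SD; p = 0.1 in the same exact test, the smallest it allows). The shares of the other chains were compared by their ranges only, without a test. As parts of the same sum they also depend on each other. The share of *Csf2rb* was higher in every LIP library than in every Ctrl library, with means of 5.30% and 4.17% of the sum, and that of *Csf1r* was lower, with 5.55% and 7.31%. The shares of *Csf2ra*, *Csf2rb2* and *Il3ra* overlapped between groups.

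**Figure D2:**
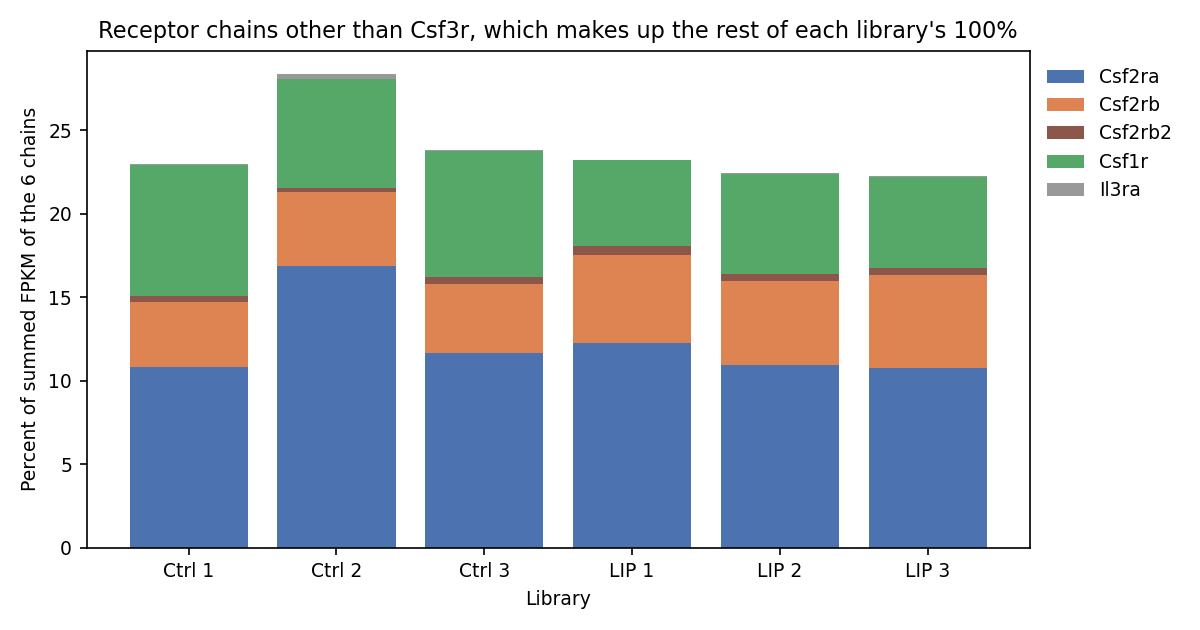
Share of each receptor chain other than *Csf3r* in the summed FPKM of the 6 chains, as stacked bars for each of the 3 Ctrl and 3 LIP libraries, with *Csf3r* as the part not drawn. *Csf1r* (green) takes 6.54% to 7.82% in Ctrl and 5.17% to 6.01% in LIP, *Csf2rb* (orange) 4.17% and 5.30% in the mean, and Ctrl 2 has the largest *Csf2ra* share (blue) with 16.9%.

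Ctrl replicate 2 was the lowest of its group in 5 of the 6 genes tested and the highest in *Csf2ra*. Over all genes tested, the same library was the lowest of its group in 37.7%. In the fits that each left out 1 library, the 6 genes were called higher in all 6 fits. The lowest log2 fold changes in these fits were 1.69 for *Csf3r*, 1.55 for *Csf2ra*, 2.07 for *Csf2rb*, 1.89 for *Csf2rb2*, 1.20 for *Csf1r* and 1.09 for *Csf1*.

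Because the neutrophil markers rose as a group, the members were also read against these 20 genes, none of which is a receptor described here. The log2 fold change of *Csf3r* exceeded that of 7 of the 20 markers, that of *Csf2ra* 4, those of *Csf2rb* and *Csf2rb2* 18 each, and those of *Csf1r* and *Csf1* 1 each. With the libraries scaled on these markers, *Csf3r* changed by -0.01 (standard error 0.139, adjusted p = 0.950 from edgeR) and *Csf2ra* by -0.21 (standard error 0.111, adjusted p = 0.0907). *Csf2rb* was the one gene of the 6 still called higher, with 0.31 (standard error 0.122, adjusted p = 0.0323), beside 0.508% of all genes tested. Of the 20 markers themselves, 5 were called higher and 3 lower with this scaling. *Csf2rb2* had a value of 0.34 (adjusted p = 0.362). *Csf1r* and *Csf1* were called lower, with -0.46 (adjusted p = 0.0268) and -0.68 (adjusted p = 0.000865), beside 89.2% of all genes tested. This scaling sets the mean of the markers to no change and so lowers every gene by about their rise.

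**Figure D3:**
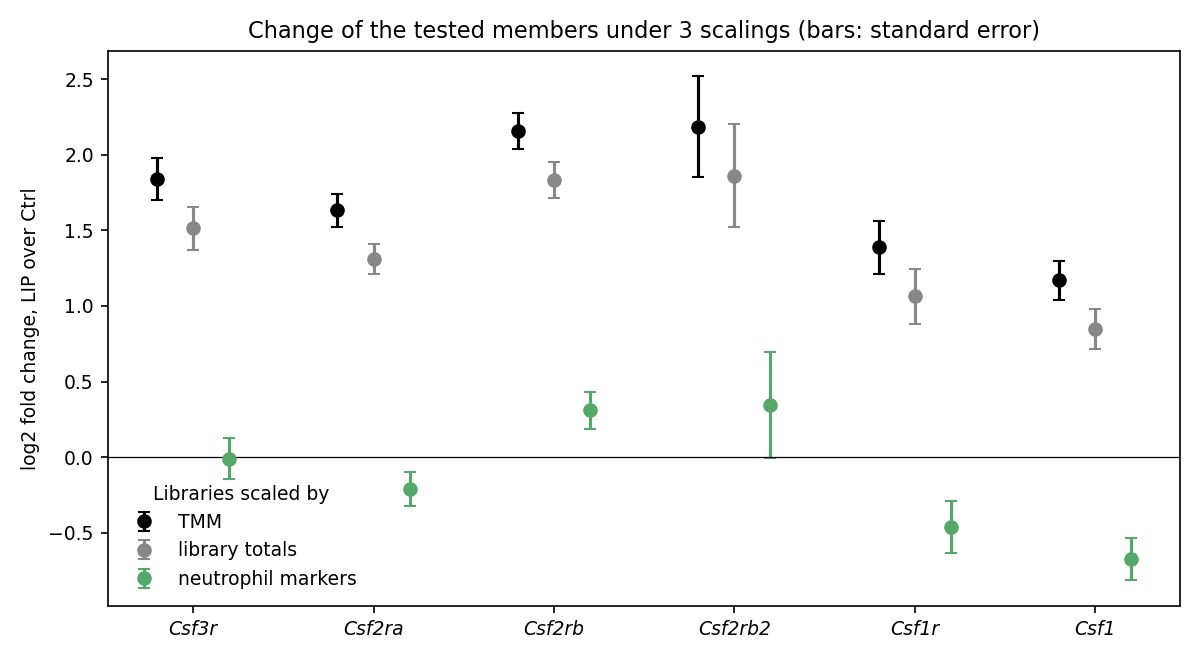
Log2 fold change of LIP over Ctrl for the 6 genes tested with libraries scaled by TMM (black), library totals (grey) or neutrophil markers (green), with bars of 1 standard error and 3 libraries per group. TMM and library totals give 0.85 to 2.19, whereas scaling on neutrophil markers gives -0.68 to 0.34 and a negative value for *Csf3r*, *Csf2ra*, *Csf1r* and *Csf1*.

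Against the marker lists of blood cells, the receptors moved in the direction of neutrophil, monocyte and platelet genes and opposite to B cell, T cell and erythroid genes. The neutrophil calprotectin genes *S100a8* and *S100a9* rose by 1.95 and 2.03. The platelet chemokine genes *Ppbp* and *Pf4* rose by 1.23 and 1.21, within a list of which 7 of 7 were called higher. The B cell genes *Cd74* and *Ighm* fell by 2.27 and 2.15 on the log2 scale, the T cell genes *Lck* and *Trac* by 1.32 and 2.36. The haemoglobin genes *Hba-a1* and *Hba-a2* fell by 2.80 and 2.89. NK cell genes gave 4 calls higher among 7, a count that fell to 0 with library totals, and the most abundant of them, *Gzma* and *Prf1*, had values of 0.20 and 0.17 (adjusted p = 0.220 and 0.326). Of 4 eosinophil markers tested, 2 were called higher, the ribonuclease gene *Ear2* with 0.81, a call lost with library totals (0.49, adjusted p = 0.0997), and the lectin gene *Siglecf* with 1.44, and *Il5ra* was called lower. Of the dendritic cell list, *Cd209a* was called higher with 1.49, and *Bst2* was not, with 0.00 (adjusted p = 0.990). Immature neutrophil genes gave 5 calls higher among 7, and the granule genes *Ngp* and *Camp* rose by 0.81 and 0.39, the latter a call lost with library totals (0.07, adjusted p = 0.568). The part of these cells in the receptor levels was not tested.

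**Figure D4:**
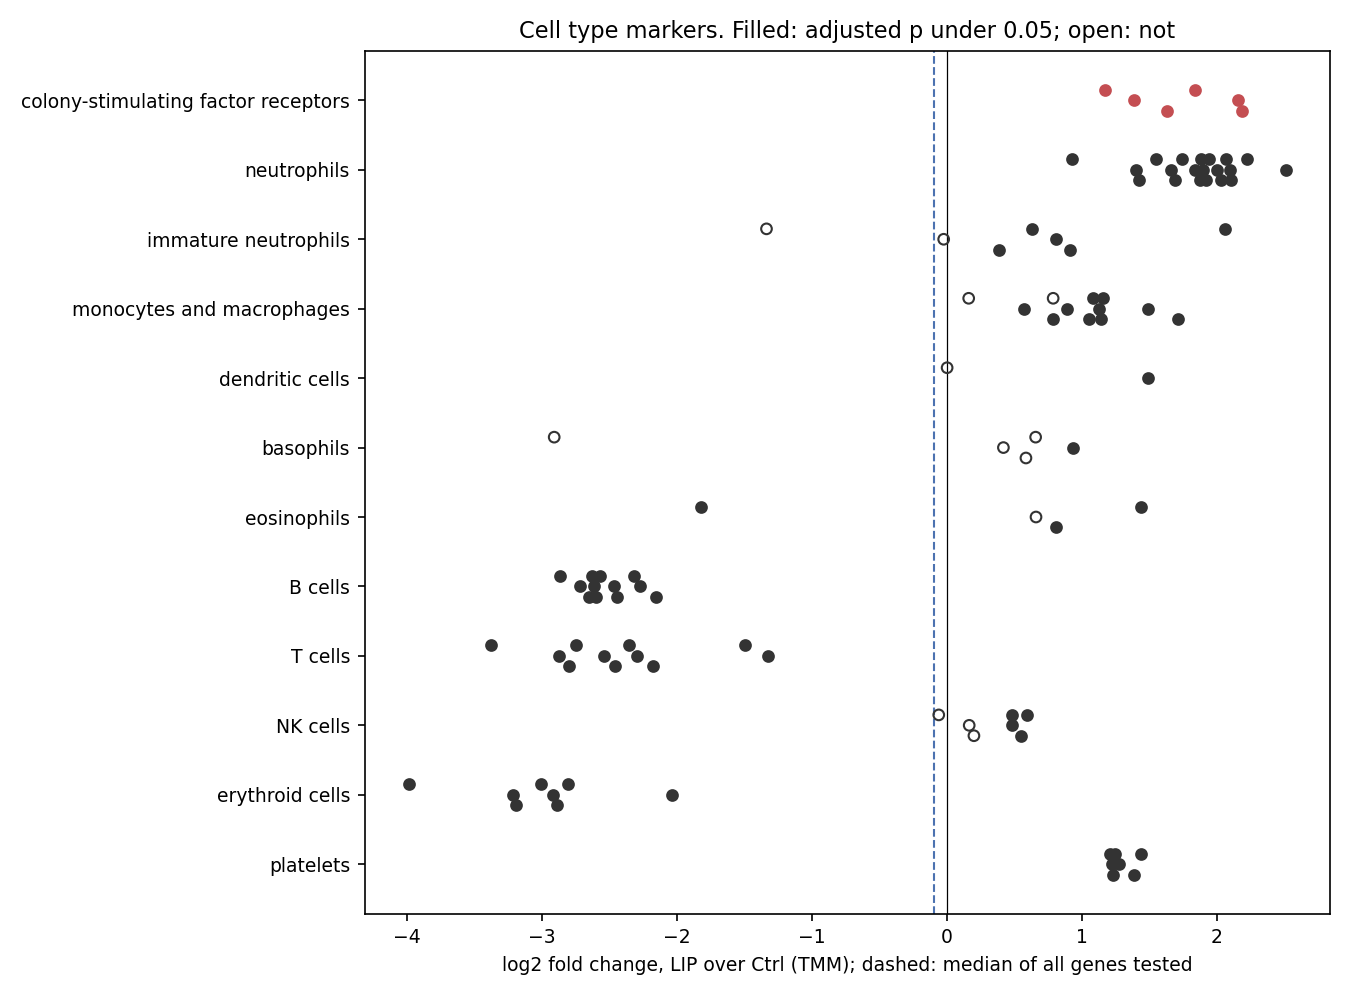
Log2 fold change of LIP over Ctrl with TMM scaling for the 6 colony-stimulating factor genes (red) and each tested gene of the cell type marker lists (black), filled where called and open where not, with the median of all genes, -0.09, as a dashed line. The 6 genes, at 1.17 to 2.19, lie within the range of the neutrophil markers, 0.93 to 2.51, and above the B cell, T cell and erythroid markers, the highest of which is at -1.32.

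Since the 6 genes tested rose together, the 250 bases upstream of each RefSeq start (GRCm38.p6) were searched on both strands for 3 short motifs of factors known from myeloid genes. Promoter entries were matched for 5 of the 7 genes, that is, all except *Csf2rb* and *Csf1r*, so that 4 of the 6 genes that rose, and *Il3ra*, were searched. GAGGAA, a core bound by PU.1, occurred in 3 of the 5, *Csf3r*, *Csf2ra* and *Csf2rb2*, beside 23.3% of 32851 promoters. TTNCNNAA, for C/EBP factors, occurred in *Csf2ra* and *Il3ra* and in 36.8% of all promoters. TTCNNNGAA, for STAT proteins, occurred in *Csf2rb2* and in 7.02%. No match of one motif overlapped that of another in these 5 promoters, and a match is a description of these letters and not of binding. The 30 bases around the PU.1 motif are printed because *Spi1*, which encodes PU.1, rose in the same libraries, and capitals mark the motif, which in *Csf2rb2* is on the reverse strand and reads TTCCTC. The windows are at chr4:126024561-126024590, forward strand, for *Csf3r*, at chr19:61228419-61228448, reverse strand, for *Csf2ra*, which has the motif at 14 and 8 bases before its start, and at chr15:78305871-78305900, reverse strand, for *Csf2rb2*. The *Csf3r* window lies within an exon of a longer GENCODE transcript, and 11 bases of the *Csf2ra* window, with the motif nearer to the start, also lie in a GENCODE exon.
Csf3r: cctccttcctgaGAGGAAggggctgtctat
Csf2ra: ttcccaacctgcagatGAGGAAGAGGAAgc
Csf2rb2: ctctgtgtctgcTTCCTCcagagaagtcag

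Other genes of the receptors' pathway were taken from 7 lists with 68 genes, of which 58 were tested. With TMM scaling 30 were called higher and 9 lower (median 0.46 on the log2 scale), whereas scaling on neutrophil markers gave 0 higher and 52 lower. The ligands were scarce. *Csf3*, which encodes G-CSF, had a log2 fold change of -1.38 (adjusted p = 0.403 from edgeR) with overlapping groups, at 0 to 9.99 FPKM in Ctrl and 0.567 to 1.39 FPKM in LIP. *Csf2*, which encodes GM-CSF, reached 3.81 FPKM in 1 Ctrl library and at most 0.0574 FPKM in LIP, and *Il34*, the other ligand of *Csf1r*, stayed under 0.1 FPKM. Both were under the filter. *Il3* and *Il5* were not among the 29097 genes listed.

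Other blood growth-factor and cytokine receptors went both ways, in contrast to the 6 genes described above. *Il6ra*, the IL-6 receptor alpha chain, rose by 1.05 (adjusted p = 2.40e-05 from edgeR). *Il7r* and *Il2rg*, receptor chains of lymphocytes, fell by 2.74 and 1.42 on the log2 scale beside the T cell list, and *Il5ra*, whose product pairs with the *Csf2rb* chain, fell by 1.82 (adjusted p = 0.00190). *Il6st*, the shared chain of the IL-6 family, fell by 0.73 (adjusted p = 0.0464). In these data *Il5ra* and *Csf2rb* moved in opposite directions, with *Il5ra* at 3.15 to 3.36 FPKM in Ctrl and 0.529 to 1.13 FPKM in LIP. The part of other cells in these values was not tested.

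Among 7 JAK and STAT genes, 4 were called higher and none lower with TMM scaling, and 2 higher and 1 lower with library totals. *Stat3*, the main STAT downstream of G-CSF, rose from 39.2 ± 6.33 to 80.0 ± 1.00 FPKM (n = 3, SD), a log2 fold change of 1.34 with a standard error of 0.112 (adjusted p = 4.58e-06 by edgeR). *Stat5b*, a STAT of GM-CSF and IL-3 signalling, rose by 0.85. *Jak1*, a kinase of the same family as *Jak2*, rose by 0.50, a call that was lost with library totals (0.17, adjusted p = 0.370). *Jak2*, the kinase bound to the common beta chain, had a value of 0.43 (adjusted p = 0.117), and *Stat5a* one of -0.21 (adjusted p = 0.372), which with library totals was called lower (-0.53, adjusted p = 0.0331).

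Of 16 adaptor, kinase and phosphatase genes, 10 were called higher and 0 lower with TMM scaling. With library totals, 8 were called higher and 1 lower. *Gab2*, a docking protein of cytokine receptors, rose most, by 1.99 (standard error 0.134, adjusted p = 1.17e-06 from edgeR), from 3.17 to 3.51 FPKM in Ctrl to 10.6 to 11.3 FPKM in LIP. *Fgr*, a Src family kinase gene, rose by 1.83.

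Feedback inhibitors and induced genes were split, with 8 of 13 called higher and 4 lower. *Socs3*, the inhibitor that binds the G-CSF receptor, rose from 48.4 ± 6.003 to 138 ± 10.3 FPKM (n = 3, SD). Its log2 fold change of 1.82 had a standard error of 0.117 (adjusted p = 8.54e-07 by edgeR) and was close to the 1.84 of *Csf3r*. Both values also lay near 1.89, the median of the 20 neutrophil markers. *Osm*, the cytokine oncostatin M, rose by 1.97 and the kinase gene *Pim1* by 1.48. In contrast, *Myc* fell by 2.48, *Pim2* by 1.92, *Socs1*, the inhibitor of JAK kinases, by 0.55 and the cyclin gene *Ccnd2* by 0.49. *Socs3* and *Socs1* thus moved in opposite directions, as did *Pim1* and *Pim2*.

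Among 8 transcription factors of myeloid receptor genes, *Cebpd*, *Spi1*, *Ets2* and *Cebpa* were called higher, with 1.83, 1.53, 1.34 and 1.19, and *Irf8*, a factor of monocytes, dendritic cells and B cells, fell by 1.15. *Spi1* stood at 232 to 264 FPKM in Ctrl and 552 to 599 FPKM in LIP. Of 7 genes of receptor trafficking and shedding, 2 were called higher with TMM scaling and 1 with library totals. *Rab5a*, a GTPase of early endosomes, was called in both, with 0.90 and 0.57. *Elane*, whose product neutrophil elastase can cut the G-CSF receptor, was scarce, at 1.27 to 2.86 FPKM in Ctrl and 0 to 1.10 FPKM in LIP (log2 fold change -1.33, adjusted p = 0.262).

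**Figure D5:**
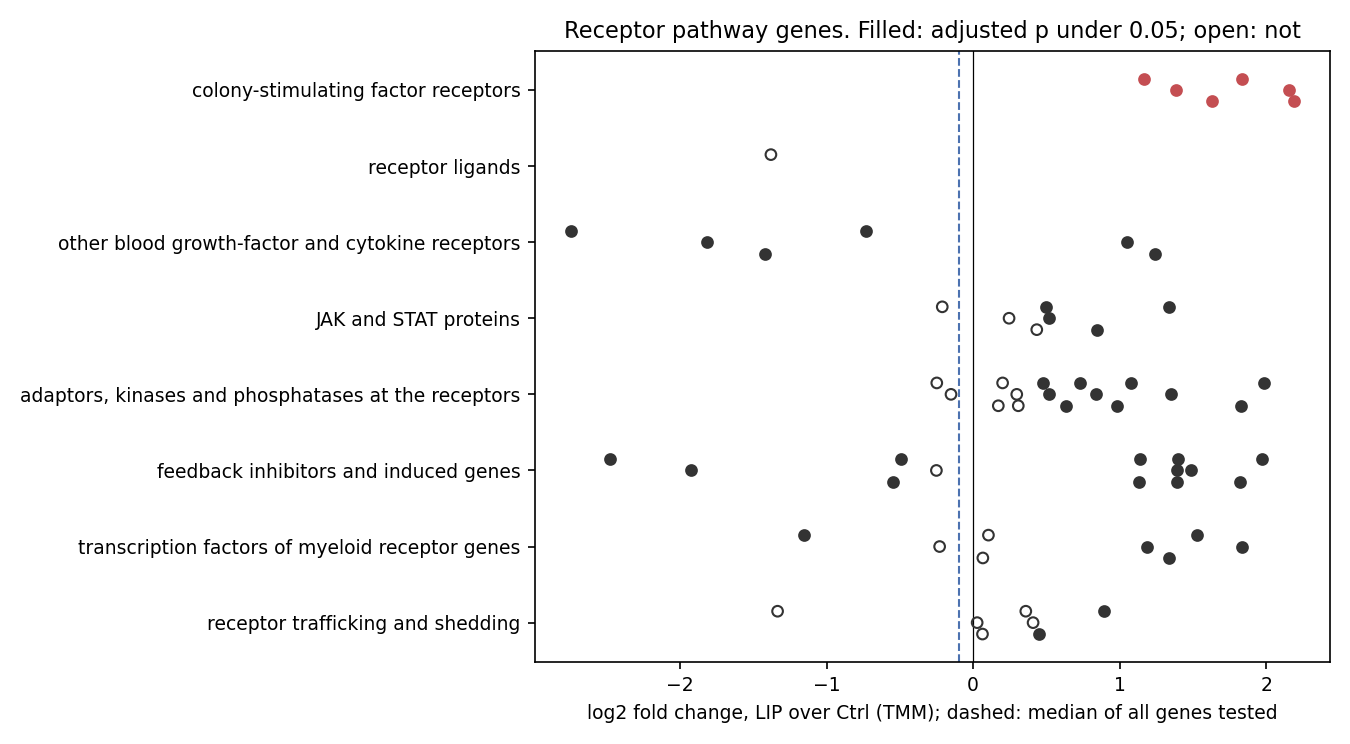
Log2 fold change of LIP over Ctrl with TMM scaling for the 6 colony-stimulating factor genes (red) and each tested gene of the 7 pathway lists (black), filled where called and open where not, with the median of all genes, -0.09, as a dashed line. The 6 genes lie between 1.17 and 2.19, whereas the other receptors reach down to -2.74 and feedback genes run from -2.48 to 1.97, and scaling on neutrophil markers left 0 of the 58 pathway genes called higher.

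The genes whose profile over the 6 libraries was most like that of *Csf3r* were *Tlr2*, *Atp6v0a1*, *Picalm*, *Sbno2* and *Ifi204*. Likeness was measured as the root mean square difference of centred log2 CPM over the 6 libraries among 3382 genes that averaged 10 FPKM or more, and was 0.02, 0.03, 0.04, 0.06 and 0.06 for these genes, beside a median of 0.84. *Tlr2*, a receptor of bacterial lipoproteins, was the most abundant of them, with a mean of 219 FPKM and a log2 fold change of 1.81. Of the 5 other receptor and ligand genes tested, the nearest was *Csf2rb* with 0.18, and 88 of the candidates were nearer to *Csf3r* than it was. All these profiles share the same 6 libraries and their difference in composition.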

How the data were processed

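For each gene and library the authors deposited raw counts and FPKM values, made from paired-end reads. Per the labels' processing notes, cutadapt 1.9, FastQC and GRCm38 were used, and the aligner, counter and use of strand are not given in the sources used here. In the table, 50 gene names stand on several rows. Counts were fitted with edgeR 4.0.16 (R 4.3.3, quasi-likelihood test, TMM, group as the only term) over 10440 genes at a mean FPKM of 1 or more, with Benjamini-Hochberg adjustment over all of them. The common biological coefficient of variation was 0.265. Within groups, chi-square per gene was 51.9 to 126 between libraries, so none was a copy of another, but reads are PCR copies and not independent molecules. P-values measure the spread between pools. The receptors and gene lists were chosen with earlier results of these data known. Named genes were the 7 genes, up to 3 called genes per direction with the largest change in each pathway list, the 2 most abundant of each marker list, and the 5 profiles nearest to *Csf3r*. Of the 7 genes, none that was tested fell with TMM scaling, so no profile was sought for a falling gene. *Ly6g*, *Ccr2*, *Il6st*, *Jak1*, *Jak2*, *Stat5a*, *Ccnd2*, *Cebpa*, *Elane* and the ligands were named after their values were seen. Some single genes that the rule names are not reported here. On counts simulated for this comparison, with 200 of 10440 genes changed, edgeR recovered 55.4% of 2-fold and 93.2% of 4-fold changes, with 4.00% false among 150 calls. DESeq2 recovered 63.4% and 93.2%, with 19.9% false among 191 calls, and limma 29.5% and 80.7%, with 4.59% false among 109. The simulated counts held no shift in composition between groups, whereas 5601 of the 10440 genes were called in the data. These rates therefore need not hold for the data. DESeq2 1.42.0 and limma 3.58.1 (pseudocounts 1 and 0.1) were alternatives, beside other scalings and filters, a replicate block, summed beta chains and leaving out each library.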

Additional observations from a re-analysis of the deposited data

How the results depend on the processing

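Under DESeq2, limma with both pseudocounts, library totals, median-of-ratios factors, TMM without erythroid markers, other filters, the replicate block, the summed beta chains and leaving out each library, *Csf3r*, *Csf2ra*, *Csf2rb*, *Csf1r* and *Csf1* stayed higher and called in 17 of 17 settings and *Csf2rb2* in all 15 that held it as a row of its own, with adjusted p-values up to 0.00282. Scaling on neutrophil markers was the exception. It gave log2 fold changes of -0.0095 for *Csf3r*, -0.21 for *Csf2ra*, -0.46 for *Csf1r*, -0.68 for *Csf1* and 0.34 for *Csf2rb2*, so that of the 6 genes 1 was called higher and 2 lower, in place of 6 and 0. It moved the pathway genes from 30 higher and 9 lower to 0 and 52, and all genes from 5601 called (2766 higher, 2835 lower) to 9368 (53 and 9315). By its construction it subtracts the rise of the markers. A mean FPKM of at least 5, which leaves fewer genes to test, gave 3637 calls (1768 and 1869). Library totals gave 1919 higher and 4146 lower, and limma on log2(FPKM + 1) 2010 and 4249. Leaving out 1 library gave 4674 to 5385 calls. The difference in the share of *Csf2rb* among both beta chains ran from -1.16 to 0.975 percentage points over these fits, and that of *Csf3r* among the receptor chains from 0.735 to 3.42. Same-numbered libraries of both groups deviated with correlations of 0.02, 0.06 and 0.04, and the other pairings with -0.05 to 0.02. With 3 libraries per group, these small values cannot decide whether same-numbered libraries share more than a number. With the replicate block, 5546 genes were called, 2724 higher and 2822 lower, and all 6 genes stayed called higher. *Il3ra*, with 22 to 157 reads per library, had a standard error of 0.945 in the fit without a filter, where no difference was detectable.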
